A study of Drosophila melanogaster with 3 samples.

Results

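The genes described here are u-shaped (ush), cabut (cbt) and the GATA factor genes pannier (pnr), serpent (srp), grain (grn) and GATAe, which are 6 of the 13945 protein-coding genes on the chromosome arms of the deposited region lists. ush and cbt were selected on the signal value of the authors' irreproducible discovery rate (IDR) list, because its strongest region lies inside ush and upstream of cbt. The 4 GATA genes were added for their known link with ush. All regions in each gene body or within 5 kb of either end were then taken from 5 lists: the IDR list (3684 regions), the list made on the pooled replicates (25066 regions) and the list of each of the 3 replicates (30000 regions each). At the 6 genes these lists hold 13, 67, 62, 80 and 86 separate regions.

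The lists come from chromatin immunoprecipitation and sequencing (ChIP-seq) of the 1 group in the labels, whole Drosophila melanogaster embryos of the strain chif-RA-GFP. The strain stably expresses the RA isoform of chiffon (chif) with GFP at its C terminus, written chif-eGFP elsewhere in the labels, and an antibody against GFP was used. Chiffon, related to the yeast protein Dbf4, activates the replication kinase Cdc7, and the Chiffon acetyltransferase (CHAT) complex is also named after it. Which of these roles the regions reflect was not tested. Chromatin was sonicated to fragments of 200 to 800 bp. Embryos were 0 to 24 hours old and of pooled sex, so the values average over all embryonic cell types and stages, and all 3 biological replicates carry the same transgene. There is no untagged or second group among the samples, so the values describe where regions lie and how they rank, with no test between conditions.

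GATA factors are zinc finger proteins that bind GATA words in DNA and direct cell fates in the embryo. ush encodes a Friend-of-GATA cofactor, which binds the GATA factors Pannier and Serpent rather than DNA sites of its own and modulates their activity in the dorsal ectoderm, heart and blood cells. Embryos mutant for ush fail to retract the germ band, and cbt, a zinc finger gene of the TIEG family, acts in dorsal closure and in the response to dietary sugar.

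The strongest region of the IDR list lay upstream of cbt, in the first intron of the long ush transcripts. The windows below are the dm6 plus strand around the summits of the regions that the results turn on, 100 bases to either side, read from the NCBI RefSeq genome sequence. All lie in introns or upstream sequence and none touches an annotated exon. Region 3, on chr2L:480989-481189, is the strongest, and region 2, on chr2L:479994-480194, is the cbt promoter region. Capitals mark the word CGATA or GAGAG in either orientation, which are the words of the insulator protein BEAF-32 and of GAGA factor.
region 3: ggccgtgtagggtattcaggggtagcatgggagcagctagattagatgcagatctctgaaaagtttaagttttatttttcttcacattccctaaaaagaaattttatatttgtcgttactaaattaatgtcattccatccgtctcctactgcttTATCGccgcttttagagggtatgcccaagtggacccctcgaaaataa
region 2: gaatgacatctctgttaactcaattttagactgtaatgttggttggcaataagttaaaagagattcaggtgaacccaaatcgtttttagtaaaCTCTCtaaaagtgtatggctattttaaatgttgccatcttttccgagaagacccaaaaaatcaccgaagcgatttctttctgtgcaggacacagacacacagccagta

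Regions 5 (chr2L:485774-485974), 8 (chr2L:510584-510784), 11 (chr2L:520744-520944) and 12 (chr2L:521977-522177) are shown because they are the IDR regions of the locus with a GATA word in the window. Capitals mark that word.
region 5: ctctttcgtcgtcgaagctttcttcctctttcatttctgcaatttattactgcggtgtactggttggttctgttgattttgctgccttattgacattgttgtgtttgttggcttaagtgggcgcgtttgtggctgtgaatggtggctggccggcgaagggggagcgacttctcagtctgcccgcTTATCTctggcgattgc
region 8: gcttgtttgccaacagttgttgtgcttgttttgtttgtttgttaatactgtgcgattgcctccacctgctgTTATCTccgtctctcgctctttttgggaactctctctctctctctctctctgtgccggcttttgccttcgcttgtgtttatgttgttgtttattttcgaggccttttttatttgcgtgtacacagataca
region 11: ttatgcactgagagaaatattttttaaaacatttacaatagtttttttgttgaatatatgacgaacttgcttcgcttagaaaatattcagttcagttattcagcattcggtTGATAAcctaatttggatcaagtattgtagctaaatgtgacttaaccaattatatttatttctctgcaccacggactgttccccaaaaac
region 12: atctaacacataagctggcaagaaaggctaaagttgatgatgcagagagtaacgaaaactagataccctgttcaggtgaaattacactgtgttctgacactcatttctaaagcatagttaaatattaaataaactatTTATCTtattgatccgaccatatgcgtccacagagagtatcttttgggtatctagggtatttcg

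The strongest region at the 4 GATA genes, in an intron of grn on chr3R:8171626-8171826, is shown for comparison. It holds none of these words and carries no capitals.
grn intron: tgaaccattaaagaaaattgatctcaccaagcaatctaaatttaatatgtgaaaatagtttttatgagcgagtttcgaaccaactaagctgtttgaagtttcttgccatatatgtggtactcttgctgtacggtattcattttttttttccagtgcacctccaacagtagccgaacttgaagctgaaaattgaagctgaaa

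ush (FBgn0003963) spans 64341 bp of chromosome 2L, from 476220 to 540560 on the plus strand, with 4 annotated start sites. cbt (FBgn0043364) is 3243 bp long, from 476446 to 479688 on the minus strand, with 1 start site, and lies inside the first intron of the long ush transcripts. The IDR list held 13 regions at ush, and 4 of them also lay within 5 kb of cbt. Of all protein-coding genes, 41.1% had an IDR region in the gene or within 5 kb. ush and cbt, chosen by the strongest region, are 2 of the 6 genes that did. None of pnr, srp, grn and GATAe did.

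Region 3, at 480899 to 481272 with its summit at 481089, had a signal value of 2129 in the IDR list. The signal value is the authors' score for a region, on a scale that is not stated, and it ranks regions within 1 list. The summit lay 1401 bp upstream of the cbt start site and 4869 bp downstream of the first ush start site. The region had a signal value of 706.0, 712.2 and 728.8 in replicates 1, 2 and 3. Its rank by that value was 2, 1 and 1, a mean of 1.33 ± 0.577 (SD, n = 3). The replicates thus ranked it nearly alike, although the replicate lists also went into the IDR list and are no independent check of it. The next IDR region, rank 2, was 103 bp upstream of the start site of CG14100, with a signal value of 2044. That region had 752.4, 690.0 and 609.9 in the 3 replicates and was first in replicate 1, so the order of these neighbours was not the same in every replicate.

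Region 2 was the only IDR region of the 6 genes whose summit lay 500 bp or less from one of their start sites. Across all protein-coding genes 15.0% had such a summit. Its summit at 480094 lay 406 bp upstream of the cbt start site, and its IDR signal value was 541.0 (rank 113). The signal value was 192.4, 177.2 and 182.0 in the 3 replicates, with ranks of 82, 141 and 105. A further region, region 4, lay 2231 bp upstream of cbt with an IDR signal value of 144.6 (rank 1843). It had 40.7, 56.0 and 39.0 in the replicates, so the regions upstream of cbt spanned over an order of magnitude of signal value in each replicate.

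**Figure D1:**
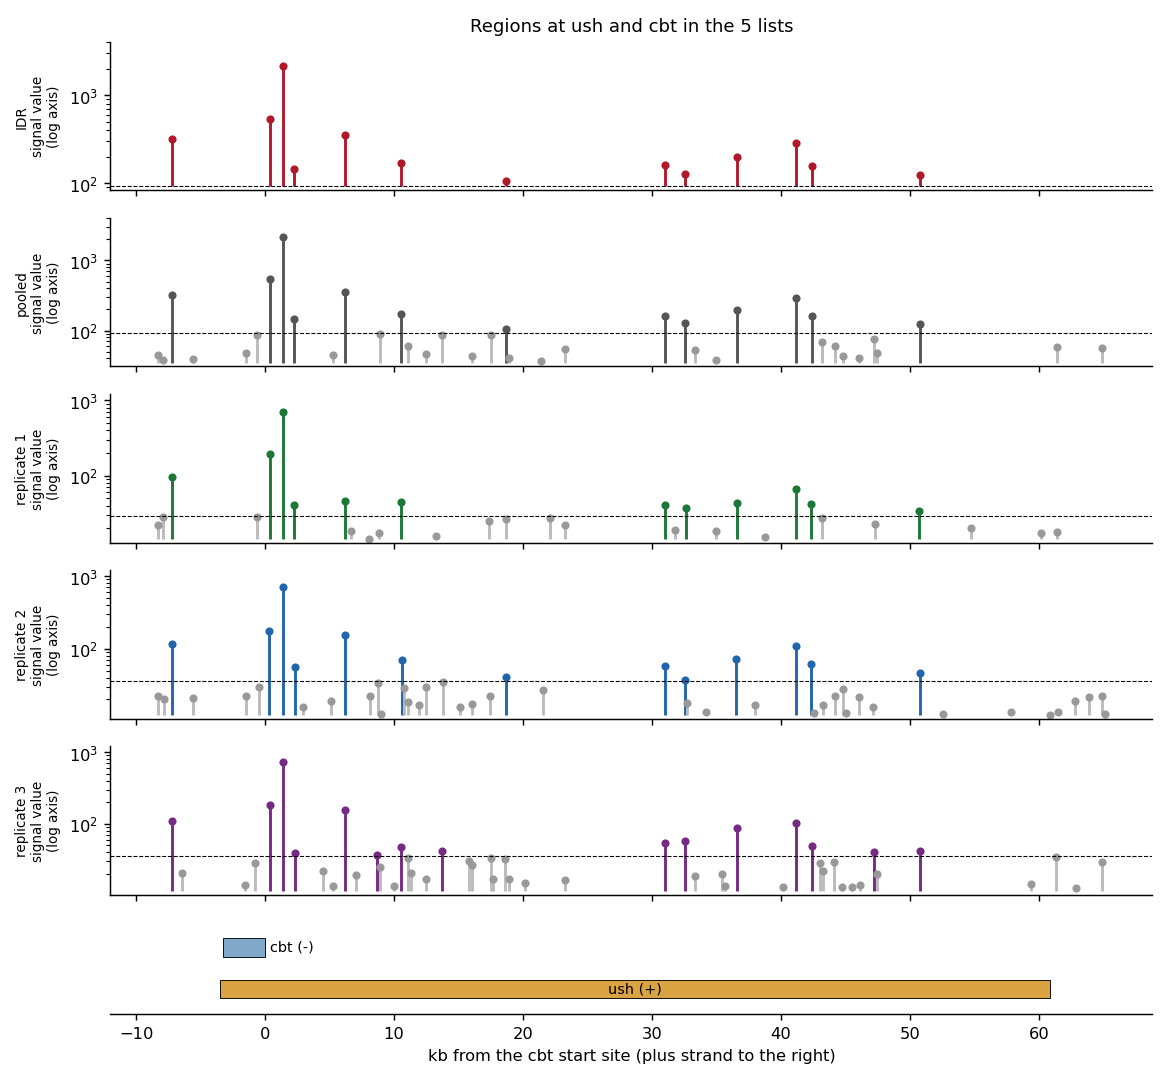
Regions at ush and cbt in the IDR, pooled and replicate lists, each a stem at its summit; the x axis is the distance in kb from the cbt start site, the y axis the authors' signal value (log axis), coloured stems are among the 3684 highest regions of their list and the dashed line is the signal value at that rank. The tallest stem of every list stands just right of the cbt start, and the body of ush carries shorter stems that recur from list to list. The IDR regions here have the same positions and values in the pooled list.

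Region 1 is the only one of the 13 with a summit outside the ush gene body. Its summit at 472456 lay 256 bp upstream of the start site of CG4297 and 3764 bp before the first ush start site. It had an IDR signal value of 322.6 (rank 369) and 95.5, 114.8 and 110.3 in the replicates. By position it belongs to the CG4297 promoter as well as to the flanks of ush and cbt. It also lies between the CG4297 start site and that of MED15, at 473013 on the opposite strand. MED15 encodes a Mediator subunit and ends just before ush. No start site of it had an IDR summit within 500 bp, region 1 lying just beyond that distance. The same held for lwr, Spp and nAChRbeta3, which start within 5 kb of the other end of ush.

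None of the 4 ush start sites had an IDR summit within 500 bp. At the first, 476220, no pooled summit lay that close either. At the second, 490835, a pooled summit at 490760 had a signal value of 59.7 and rank 7466. The pair of starts at 523466 and 523736 had a pooled summit at 523851 with a signal value of 60.0 and rank 7383. Replicate 1 listed no summit within 500 bp of any of the 4. Replicates 2 and 3 did so at all but the first, the highest being ranked 5603 in replicate 2 and 4126 in replicate 3, both at the second start site. The nearest IDR summit to an ush start was that of region 6 at 490234, which fell in a 5' UTR exon of the transcript FBtr0333013, 601 bp upstream of the start at 490835. Region 6 had an IDR signal value of 172.1 (rank 1356) and 44.1, 70.2 and 46.8 in the replicates.

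The other regions of the locus lay in introns of ush. By class, 10 of the 13 were intronic, 2 were promoter regions, those of cbt and CG4297, and 1 was in a 5' UTR. Class shares over the whole IDR list are not given here, and ush is largely intron, so these counts are a description. Regions 2 to 5 lay in the first intron of FBtr0333013, 13185 bp long. Regions 7 to 12 lay in the next intron of that transcript, 34033 bp long, and region 13 in an intron of 10586 bp shared by all 5 annotated ush transcripts. Spacing between neighbouring summits ran from 830 to 12320 bp, with a median of 4182 bp. With the flanks the locus held 1.75 IDR regions per 10 kb, beside 0.275 per 10 kb over the chromosome arms, a description of a locus that was selected on its strongest region.

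Region 5, deep in the first ush intron at 485874, was ranked differently between replicates. It had an IDR signal value of 355.9 (rank 299), with 46.6, 152.9 and 156.9 in replicates 1, 2 and 3. Replicate 1 ranked it 1516, whereas replicates 2 and 3 ranked it 211 and 165. In replicate 1, region 3 ranked 2 and region 2 ranked 82, so the low rank was not shared by these regions, nearer to cbt.

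In the 34033 bp intron, region 11 at 520844 was the strongest, with an IDR signal value of 289.2 (rank 502). It had 66.9, 110.4 and 103.6 in the replicates, where its ranks were 827, 458 and 445, lowest again in replicate 1. Region 10 at 516283 had 198.0 in the IDR list (rank 1039) and 42.8, 72.9 and 86.3 in the replicates. Region 8 at 510684 followed with 162.1 (rank 1520) and region 12 at 522077 with 159.4 (rank 1568), and their 3 replicate ranks lay between 1620 and 1968 and between 1445 and 2057. Region 9 at 512280 had 126.8 (rank 2280), with 37.0, 37.0 and 57.4 in the replicates. Its ranks there were 2253, 3600 and 1514, highest in replicate 3. Region 13 at 530446, nearest to the 3' end of ush, had 125.5 (rank 2313) and ranks of 2612, 2473 and 2692.

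**Figure D2:**
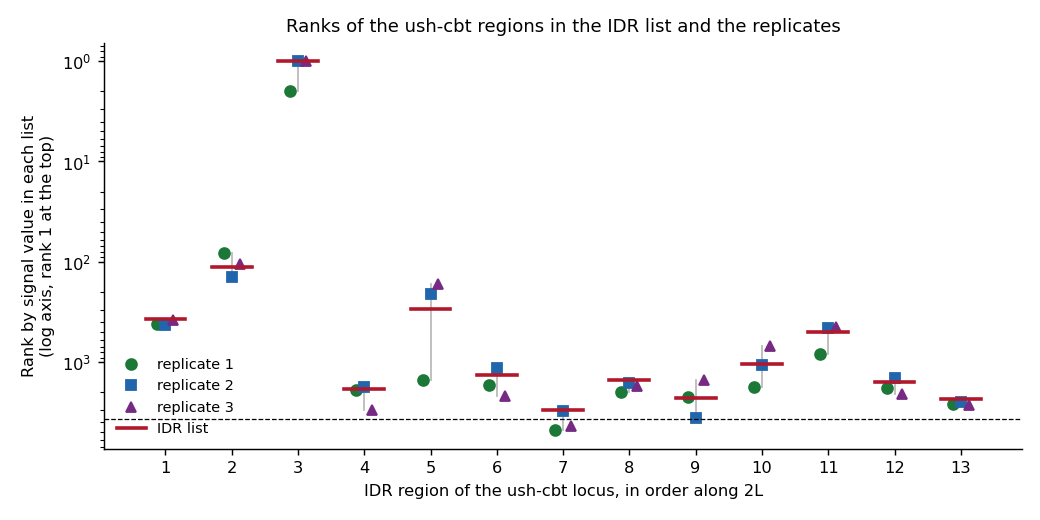
Rank by signal value of the 13 IDR regions at ush and cbt, numbered along chromosome 2L, in the IDR list (red bars) and in each replicate (symbols); the y axis is logarithmic with rank 1 at the top, and the dashed line is rank 3684. Region 3 is at rank 1 or 2 in every list, region 5 is lower in replicate 1, and region 7 is below the line in replicates 1 and 3.

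Of the 13 regions, 12 overlapped one of the 3684 highest regions in each of the 3 replicates. Over the whole IDR list this share was 59.1%. The locus was selected on its signal value, which bears on this count. The exception was region 7 at 498364, which reached the highest regions in replicate 2 alone. It had 26.8, 40.8 and 31.8 in the replicates, with ranks of 4789, 3046 and 4305. Replicate summits lay a median of 13 bp from the IDR summit, with a largest shift of 78 bp over 39 pairs. The IDR list was made from these same replicates, so the shifts are no independent check. Between replicates the distance can be larger, as for region 13, with summits at 530376 in replicate 1 and 530493 in replicate 2. By signal value, 9 of the 13 were above the median of all IDR regions, 144.7. By −log10 q, 10 of the 13 had the highest value in the list, 3.60, as did 53.9% of all IDR regions.

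Region 7 was also the member region nearest to the end of the IDR list, with a signal value of 105.7 and rank 2970. The lowest signal value in the list was 92.4. The pooled region at ush just outside it lay from 488409 to 488804, with a signal value of 90.1 and pooled rank 3837. It ranked 19623, 4231 and 3381 in the 3 replicates, so replicate 3 placed it among its highest regions and replicate 1 far below. Counted without regard to the IDR list, ush and its flanks held 38 pooled regions and 31, 50 and 49 regions in the replicates, of which 12, 13 and 15 were among the 3684 highest.

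ush was among the 4 protein-coding genes with 13 or more IDR regions, together with kirre (17), CG1677 (15) and sbb (13). Length has to be read beside this count. At least as long as ush were 198 genes, whose median was 1 IDR region, and 70 of them had none. cbt, a short gene, had 4 IDR regions, a count reached by 311 genes, and all 4 were shared with ush.

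**Figure D3:**
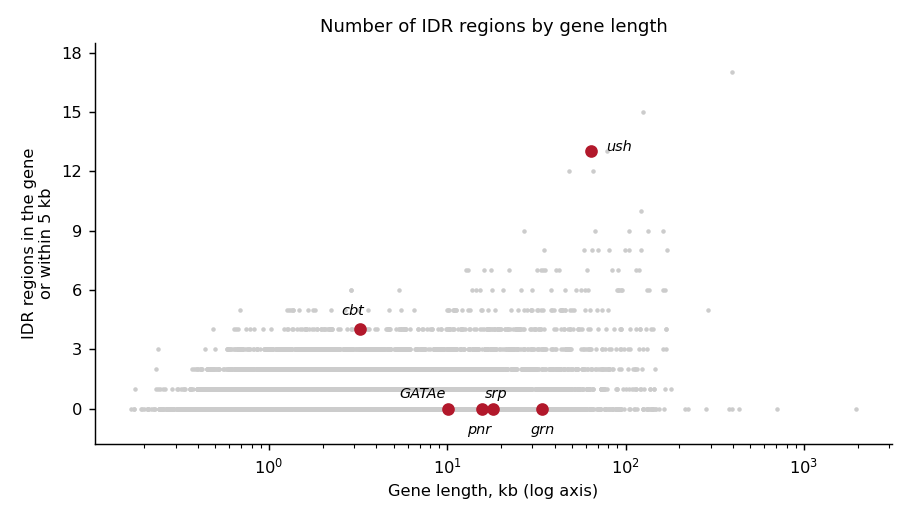
Number of IDR regions in each protein-coding gene or within 5 kb of it (y axis) against gene length in kb (x axis, log), with the 6 genes in red and all others in grey. ush has 13 regions and cbt 4, and pnr, srp, grn and GATAe lie at 0.

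The 4 GATA genes lie on chromosome 3R. srp (FBgn0003507, 15986152 to 16004085), which directs endoderm, fat body and blood cell fates, is followed on the plus strand by GATAe (FBgn0038391, 16009105 to 16019133), a gene of the midgut endoderm, and by pnr (FBgn0003117, 16026079 to 16041796), which acts in the dorsal ectoderm, heart and notum. grn (FBgn0001138, 8147368 to 8181444), which acts in the posterior spiracles and in neurons, lies elsewhere on the arm on the minus strand. The IDR regions nearest to the srp-GATAe-pnr cluster were 11719 bp to its left, near Hel89B, with rank 676, and 27737 bp to its right. Those nearest to grn were 25007 bp and 15855 bp away. Jhbp4 and Jhbp5, which start within 5 kb of pnr, had no IDR region within 5 kb either. Among genes at least as long as each of them, with no upper limit, the share with an IDR region was 61.8% for grn, 60.1% for srp, 60.3% for pnr and 58.2% for GATAe. A gene of that length or longer without an IDR region was thus common. Genes of like length alone were not compared.

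By its deposited name the pooled list holds background as well as peaks. In it all 6 genes had regions, as did 90.4% of all protein-coding genes. The 4 GATA genes had 29 separate pooled regions, 20 at srp, GATAe and pnr and 9 at grn, with ranks from 4122 to 24905. Their −log10 q ran from 1.94 down to 0.0184. Start sites had a pooled summit within 500 bp in 5 of the 6 genes, all but grn, beside 45.1% of all genes. ush, srp, pnr and GATAe have 4, 4, 3 and 2 start sites, and the share of all genes was not matched for this number. The srp summit counted here had rank 24905 and a −log10 q of 0.0184. In the pooled list the signal value at rank 3684 was 92.4 and the −log10 q there was 2.35.

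The strongest region at each GATA gene fell short of that signal value. The IDR list, also of 3684 regions, ends at the same value, so this restates that none of these genes had an IDR region. At grn it was the intron region with its summit at 8171726, which had a pooled signal value of 85.7 and rank 4122. Replicates 1 and 3 had it at 33.1 (rank 2790) and 37.1 (rank 3277), and replicate 2 listed no region there. A second grn intron region, at 8155993, had a pooled signal value of 84.0 (rank 4253). It had 20.1, 28.4 and 39.5 in the replicates, and only replicate 3, at rank 2962, placed it among its highest regions.

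At srp the strongest pooled region lay 1423 bp upstream of its first start site, at 15984729, with a signal value of 78.0 (rank 4751). It was listed in each replicate, with 25.8, 20.1 and 26.3, and was among the highest regions of none. At pnr the strongest region lay at the promoter, at 16026187 and 65 bp upstream of the start at 16026252, with 75.3 (rank 5057). Replicate 1 listed no region there, and replicates 2 and 3 had it at 41.2 (rank 2994) and 34.5 (rank 3753). Between srp and GATAe, a region at 16004235 was the strongest for GATAe, with 74.2 (rank 5178), and it was listed in replicates 2 and 3 at 26.3 and 30.5.

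**Figure D4:**
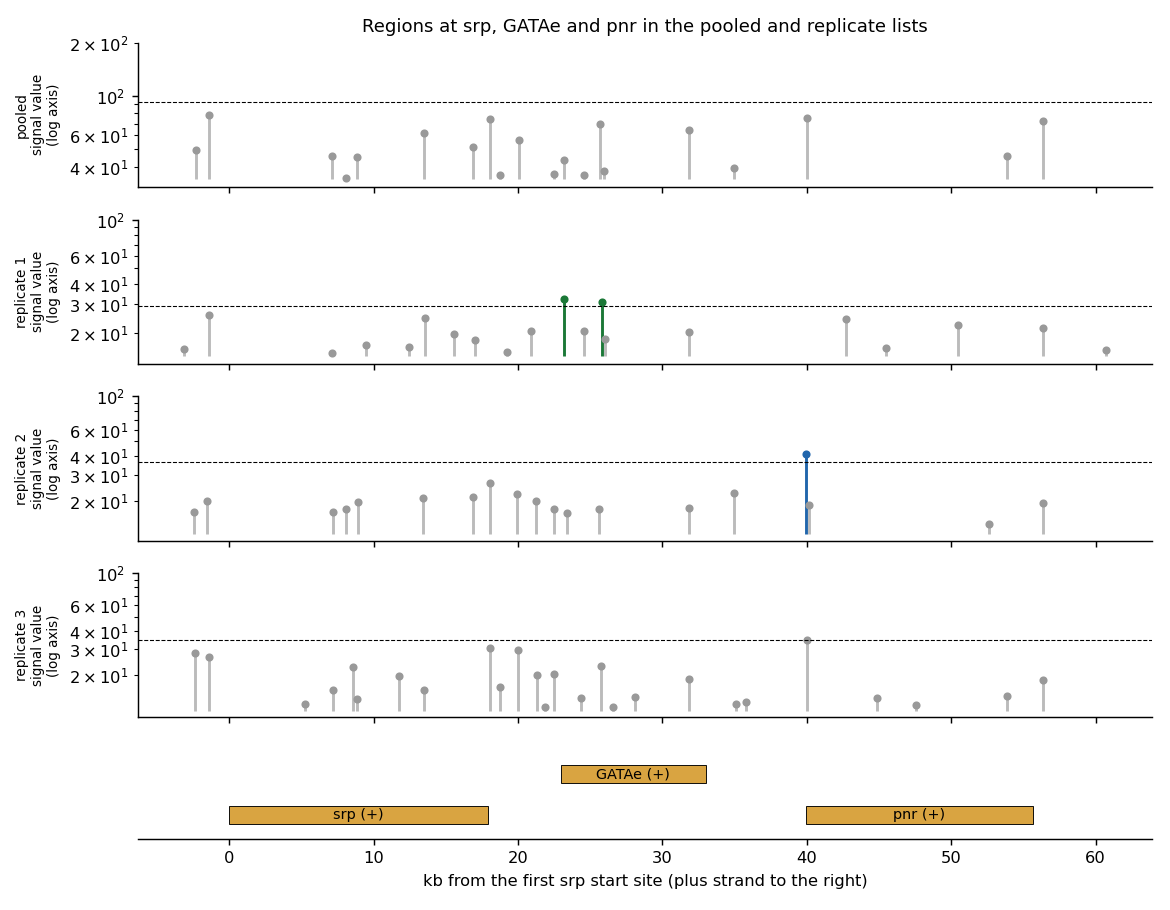
Regions at srp, GATAe and pnr in the pooled and replicate lists, each a stem at its summit; the x axis is the distance in kb from the first srp start site and the y axis the authors' signal value (log axis), with the dashed line at the value of rank 3684. No pooled stem reaches the line, which restates that none of these genes had an IDR region. The coloured stems above the line differ between replicates, at GATAe in replicate 1 and at pnr in replicate 2.

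Of the GATAe promoter regions, 2 were higher in replicate 1 than in the other replicates. A summit 230 bp downstream of its first start site ranked 2893 in replicate 1 and 16360 in replicate 2, and replicate 3 listed none. The one 336 bp upstream of its second start site ranked 3263, 14676 and 7691. Another, 495 bp upstream of the first start site, went the other way: replicate 1 listed none, and replicates 2 and 3 ranked it 14691 and 10004. Among the 3684 highest regions, GATAe thus had 2 in replicate 1, pnr had 1 in replicate 2, grn had 1 in replicate 1 and 2 in replicate 3, and srp had 0 in each. The shares of all protein-coding genes with such a region were 42.7%, 42.0% and 40.3% in replicates 1, 2 and 3. The −log10 q at rank 3684 was 0.735, 2.69 and 2.91 in these replicates, so the cut was weaker in replicate 1. There the GATAe regions had 1.04 and 0.872 and the grn region 1.08. The pnr region of replicate 2 had 3.08, and the grn regions of replicate 3 had 3.07 and 3.12. The best pooled ranks of the 4 genes ran from 4122 to 5178. The spread of a pooled rank was not estimated, so no order among these genes is drawn from them.

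Recurrence over the replicate lists was counted as well. Of the pooled regions at srp, 3 of 11 overlapped a region in all 3 replicate lists, and at GATAe, pnr and grn the counts were 3 of 10, 1 of 4 and 2 of 9. Regions between neighbouring genes are counted for both, and 2 of the 3 at GATAe overlapped the same replicate regions. Of all pooled regions outside the IDR list 23.7% overlapped a region in all 3 lists, so the counts at these genes lie near that share. Of the 29 pooled regions 8 lay in coding exons, 8 in introns, 6 at promoters and 5 between genes. Of the 38 pooled regions at ush and cbt 1 lay in a coding exon, 24 in introns and 7 at promoters. The loci differ in their exons and introns, and class shares over the whole pooled list are not given here. These counts therefore describe position and do not compare the loci.

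**Figure D5:**
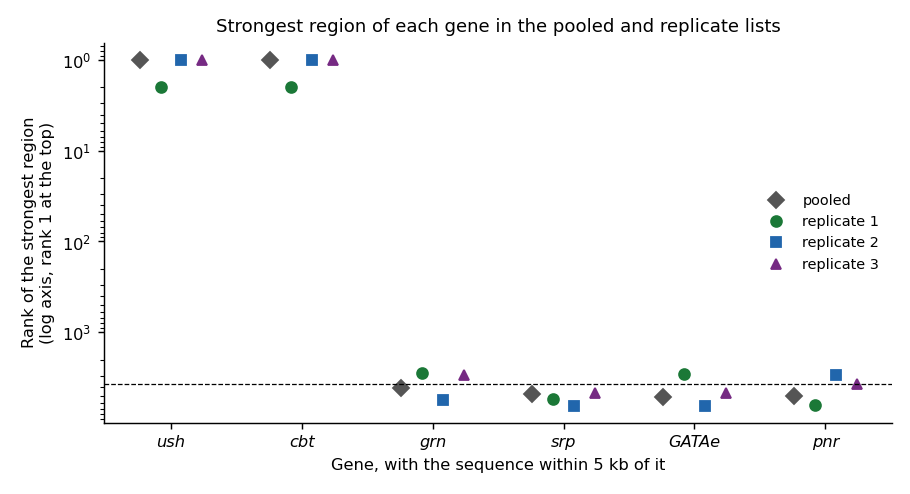
Rank of the strongest region of each of the 6 genes in the pooled list and in each replicate, on a log y axis with rank 1 at the top; the dashed line is rank 3684. ush and cbt share the top region, the strongest regions of grn, GATAe and pnr lie above the line in some replicates and below it in others, and those of srp lie below it in every list. In replicates 2 and 3, srp and GATAe share the same strongest region.

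Words for known factors were counted in the windows of 100 bases to either side of the summits, in either orientation. GATA words, taken as AGATAA and the forms of it that begin with T or end in G, were in 4 of the 13 windows at ush and cbt, 30.8% with an exact 95% binomial interval of 9.09 to 61.4% that covers counting error only. They were in 37.6% of all IDR windows and in 27.0% of pooled windows outside the IDR list. The windows shown above place them 84 bp right of the summit in region 5, 29 bp left of it in region 8, 11 bp right in region 11 and 37 bp right in region 12. None of regions 2, 3 and 4, upstream of cbt, held one. At the 4 GATA genes 4 of the 29 pooled windows held a GATA word.

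GAGAG was in 6 of the 13 windows, 46.2% with an interval of 19.2 to 74.9%, beside 22.1% of all IDR windows and 24.2% of the lower pooled windows. Region 8 held 10 matches, 9 of which overlap one another in a CT repeat that starts at its summit, and region 2 held 1 match 7 bp left of its summit. CGATA was in 3 of 13, beside 27.9% of all IDR windows, and region 3 carried it 54 bp right of its summit. The DNA replication-related element TATCGATA was in 0 of 13 and 3.37% of all IDR windows, and contains CGATA. The TATA word TATAAA was in 2 of 13, beside 31.7%. CACCC, a word of KLF-type zinc finger proteins, was in 1 of 13 beside 16.0%, CACGTG in 1 of 13 beside 2.44%, and the Zelda word CAGGTAG in 0 of 13 beside 0.841%. Mean GC content was 39.3% at ush and cbt, 36.8% over all IDR windows and 51.5% in the pooled windows at the GATA genes. The 13 windows belong to 1 locus, and words in them are a description of these letters.

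Other genes of the pathway were taken from 7 lists with 66 genes in all, of which 32 had an IDR region in the gene or within 5 kb, 48.5% beside the 41.1% of all genes. A counted region can lie nearest to a start site of another gene, which held for a strongest region in every list. Of the other GATA factor and U-shaped cofactor genes 3 of 6 did. CtBP, a corepressor, had its strongest region at a signal value of 160.0, and GATAd, the fifth GATA gene, had none. Of the U-shaped group and dorsal closure genes 8 of 12 did. Among them were jar at 313.5, the JNK phosphatase gene puc at 300.8 and the TGF-beta ligand gene dpp at 261.9, all in introns. The jar summit lay 509 bp upstream of a jar start site. The strongest region of tup, at 298.9, lay at the promoter of another gene, as did that of Jra. Of the notum and proneural genes, where Pannier and U-shaped act on ac and sc, 3 of 12 did, and ac and sc were not among them.

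Of the hemocyte genes 6 of 14 had an IDR region, with the zinc finger gene zfh1 at 433.4 in an intron. At gcm, Pxn, kn, vkg and Hml the strongest region lay nearest to a start site of another gene. Of the heart genes 6 of 10 did, of the endoderm and gut genes 4 of 6, and of the sugar sensing and KLF genes 2 of 6. The strongest region of the 66 genes was that of the heart gene Mef2 at 903 (rank 32), with its summit at the promoter of another gene. Start sites of 3 of the 66 had an IDR summit within 500 bp, beside 15.0% of all genes. These were the heart gene tin, 196 bp upstream with a signal value of 116.8, the gut gene fkh, 234 bp upstream with 259.3, and bigmax, which encodes the partner of the sugar sensor Mondo, 156 bp upstream with 306.7. The summit at bigmax lay nearer to a start site of Hmu and belongs by position to both promoters. CtBP, GATAd, jar, puc, dpp, tup, Jra, ac, sc, gcm, Pxn, kn, vkg, Hml, zfh1 and Mef2 were singled out after their values were seen.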

How the data were processed

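Regions are the authors' deposited narrowPeak lists in build dm6. Lists that served as IDR input were made for every replicate and for the replicates pooled, and the IDR list derives from these, per the deposited file listings. A further file, also an input of the control-normalized tracks, went into each input list, per those listings. Not given in the sources used here are the aligner, the peak caller and the threshold of the IDR step. The signal value is the authors' score, of unstated scale, used to rank regions within a list. The −log10 q-value and the summit offset are likewise the authors' deposited values. No read counts accompany the lists, so depth is unknown.

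Gene models were Ensembl release 115 for BDGP 6.54, and the 6 genes have the same coordinates in RefSeq. Coordinates are 1-based. Summits 500 bp or less from a coding gene's start site were classed as promoter, the rest as UTR, coding exon, other exon, intron or intergenic. Lists were compared by an overlap of at least 1 bp, and highest regions are the 3684 of highest signal value in a replicate. Words were counted 100 bases to either side of a summit. The analysis used Python 3.11.15, NumPy 2.4.6 and SciPy 1.17.1, and the counting functions were tested on simulated data. No test between groups was possible with 1 group of 3 replicates.

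The genes and lists were chosen with earlier results of these data known. The genes named are the 6 genes, genes that start within 5 kb of them, the gene nearest to the IDR region ranked next to their strongest, and up to 4 genes per list with an IDR summit at a start site. The genes with the most regions and those near the closest IDR regions were added afterwards. The dm3 lists were not used.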

Additional observations from a re-analysis of the deposited data

How the results depend on the processing

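Of 29 alternative settings, 24 left their result within its margin (1.5 times a count, 1 SD of the mean rank, the binomial interval of the share) and 5 moved it. With the gene body alone, 1 gene had an IDR region rather than 2, since the IDR regions near cbt lie outside its body, 3 upstream and 1 beyond its 3' end. Genes with an IDR summit near a start site numbered 0 with a 250 bp window and 2 with a 1000 bp window, which adds ush through region 6, rather than 1. With the 1842 highest regions per replicate, 6 of the 13 regions rather than 12 were found in all 3 replicates. Ranked by −log10 q with tied ranks averaged, region 3 had a mean rank of 953.3 rather than 1.33, because 812, 2776 and 2129 regions share the top value in the 3 replicates. Leaving out each replicate in turn gave 2 to 3 genes with a region among the highest of both other replicates, grn joining ush and cbt without replicate 2, 12 of 13 regions found each time, and a mean rank of 1 to 1.5. The share of windows with a GATA word ran from 23.1% with 50 bases to either side to 53.8% with 200 bases, beside 20.7% and 57.4% of all IDR windows. No paired analysis was possible because the labels give 1 group. The dm3 lists were not run. Depth is unknown, so a region missing from 1 replicate may lie below its list's lowest value.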
